A study of Drosophila melanogaster with 4 samples.

Results

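The interior of chromosome arm 3R of Drosophila melanogaster was taken as the arm of 27905053 bp in FlyBase release 5 without its centromeric 3 Mb and its telomeric 1 Mb. The centromere end is at low coordinates. It was tiled in windows of 5 kb from its proximal end, the end nearer the centromere, which gave 4782 windows. They are 4781 full windows and a remainder of 53 bp at the distal end, out of 33750 such windows over all 14 sequences of the assembly. Every window counts as a member, whatever its coverage. The mark is dimethylation of lysine 9 on histone H3 (H3K9me2), profiled by chromatin immunoprecipitation and sequencing (ChIP-seq) in S2-DRSC cells with an antibody that the labels number 2. S2-DRSC is a cell line in culture that came from late-stage embryos. It is labelled male, and no treatment or genetic change is given. Of the 4 samples, 2 are H3K9me2 ChIP samples and 2 are inputs, DNA of the sheared chromatin taken before any pull-down. The authors called enriched clusters in each ChIP sample against its own input, which gave 1 list a sample. They also deposited a list for the series, named the combined list below.

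H3K9 methylation is laid down by several methyltransferases and is bound by HP1 proteins, and it packs the repeat-rich chromatin around centromeres into heterochromatin. In the gene-rich euchromatin of the arms it is known mostly from transposon insertions, repeats and silent stretches that lie apart from each other. Arm 3R is the longest arm of the assembly, and its interior is mostly euchromatin. The questions here are how much of that euchromatin the clusters cover, in what lengths and spacing, and where the longest marked and unmarked stretches lie.

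A covered base is a base inside a cluster. Read depth is not known from these lists, so a base outside clusters is not shown to lack the mark. Values exist for a single group of 2 samples, and nothing in the labels says that they came from separate cultures. With 2 samples an exact two-sided test over samples, also of differences within each sample, cannot give a p below 0.5. None was run, and all values below are descriptions, given for each replicate or with the spread between the replicates, which may be technical. The 3R interior is 14.2% of the assembly, but it held 5.65% of all covered bases in replicate 1 and 6.55% in replicate 2.

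H3K9me2 clusters covered little of the 3R interior. In replicate 1, 344 clusters covered 1480 kb, or 6.19% of it, and in replicate 2, 501 clusters covered 2111 kb, or 8.83%. The mean was 7.51 ± 1.87% of bases and 422.5 ± 111.0 clusters (SD, n = 2). The combined list held 403 clusters over 7.76%. No cluster of any of the 3 lists crossed an end of the interior. Coverage did not jump at either end. In replicates 1 and 2 the 1 Mb just outside the proximal end stood at 3.09% and 5.32%, and the 1 Mb just inside it at 3.63% and 5.66%. At the distal end the 1 Mb inside stood at 3.16% and 7.33%, and the 1 Mb outside at 4.02% and 4.93%.

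Most windows held no covered base. Replicate 1 marked 575 windows (12.02%) with at least 1 covered base and replicate 2 marked 826 (17.3%). Over the interiors of 3R, 2L, 3L and X together, cut in the same way, 18.3% of windows were marked in replicate 1 and 25.1% in replicate 2. The 3R shares were thus below this background in both replicates. Windows covered over at least 50% of their length numbered 261 in replicate 1 (5.46%, against 9.32% over the 4 interiors) and 369 in replicate 2 (7.72%, against 12.8%). Completely covered windows numbered 98 in replicate 1 (2.05%) and 133 in replicate 2 (2.78%), and 92 windows were complete in both. In replicates 1 and 2 the shares of such windows were 3.10% and 4.34% in the 2L interior and 3.19% and 3.65% in the 3L interior. In the X interior they were 6.38% and 9.77%. A marked window was covered at 51.5% on average in replicate 1 and at 51.1% in replicate 2. These means cover different sets of windows in the 2 replicates.

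The replicates marked largely the same windows, with most of the difference on the side of replicate 2. Both replicates marked 557 windows (11.6%). A further 18 were marked in replicate 1 only and 269 in replicate 2 only, which left 3938 (82.4%) unmarked. Windows marked in both were covered at 52.5% on average in replicate 1 and at 62.5% in replicate 2. The windows marked in replicate 2 only were covered at 27.5% on average. Of these 269 windows, 87 lay directly beside a window marked in replicate 1, and 111 were also marked in the combined list. Among windows covered at 50% or more, 251 were shared, 10 reached this share in replicate 1 only and 118 in replicate 2 only. Of those 118, 92 held some covered base in replicate 1 as well. A difference of more than 50 percentage points occurred in 46 windows with replicate 2 higher and in 3 with replicate 1 higher.

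By base, 1390 kb of the 3R interior was covered in both replicates, while replicate 1 alone covered 90.3 kb and replicate 2 alone 721 kb. Shared bases made up 63.1% of those covered in either. They were 93.9% of the replicate 1 bases and 65.8% of the replicate 2 bases. The 721 kb found in replicate 2 alone fell into 2 nearly equal parts. Clusters that met no replicate 1 cluster held 369 kb of it. The other 352 kb lay in clusters that did meet one, where replicate 2 reached further or bridged a gap.

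**Figure D1:**
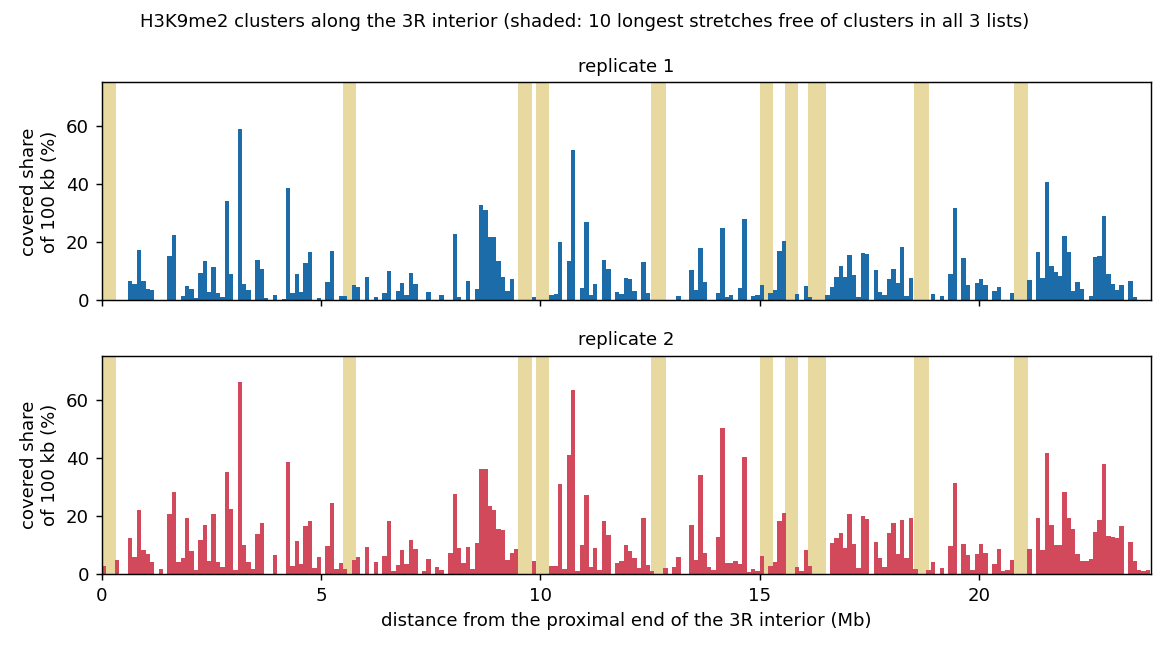
Share of each 100-kb bin of the 3R interior inside H3K9me2 clusters (vertical axes, percent) against the distance of the bin from the proximal end of the interior (horizontal axis, Mb), for replicate 1 (top) and replicate 2 (bottom); shading marks the 10 longest stretches with no cluster in the 3 lists. The highest bin stands at 59.0% in replicate 1 and 66.0% in replicate 2, while 46 of 239 bins are at 0 in both.

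Most clusters were short, and a few long ones held a large part of the covered bases. The median length was 2541 bp in replicate 1 and 2406 bp in replicate 2, and the middle 50% of the clusters ran from 1721 to 4582 bp and from 1605 to 4334 bp. The shortest cluster was 1001 bp in each list. Clusters under 2 kb made up 36.3% of the clusters in replicate 1 and 38.5% in replicate 2, but they held 12.6% and 13.4% of the clustered bases. At the other end, 34 clusters of at least 10 kb in replicate 1 held 37.1% of the bases, and 43 in replicate 2 held 36.8%. Clusters of at least 20 kb numbered 6 and 11. The longest was 40.9 kb in replicate 1 and 47.7 kb in replicate 2.

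The distances between neighbouring clusters spanned a far wider range than the lengths. The median distance was 20.9 kb in replicate 1 and 17.6 kb in replicate 2. In replicate 1, 12.8% of the distances were under 1 kb and 29.2% under 5 kb, and in replicate 2 these shares were 11.6% and 29.2%. Distances of at least 100 kb numbered 77 in replicate 1 and 64 in replicate 2, and they spanned 65.7% and 49.1% of the interior. Both close neighbours and long empty stretches thus occurred in the interior.

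**Figure D2:**
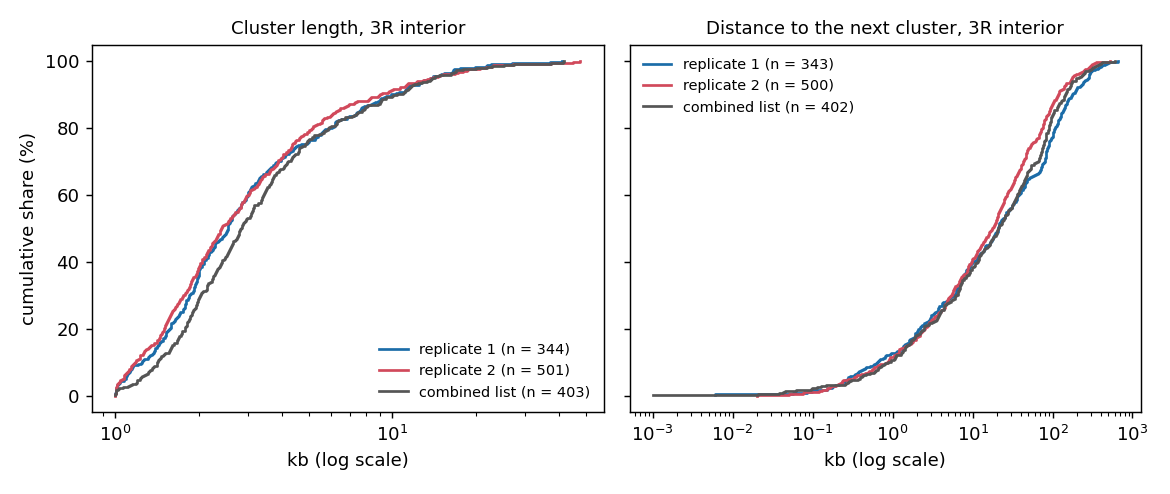
Cumulative share of clusters by length (left) and of distances between neighbouring clusters (right), both in kb on a log axis, for the 3 lists in the 3R interior. Lengths lie between 1001 bp and 47.7 kb, whereas distances run from 1 bp in the combined list to 655 kb in replicate 1.

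Marked windows lay near each other over short distances. Of the windows marked in replicate 1, 61.0% had a marked window as their next distal neighbour, and the share was 61.0% in replicate 2 as well. At a distance of 20 kb the shares were 26.1% and 29.8%, and at 50 kb they were 16.4% and 23.6%. At 75 kb they were 8.89% and 18.2%, and at 100 kb 12.4% and 19.6%. At 150 kb they were 15.3% and 17.7%, so from 75 kb they lay around the 12.02% and 17.3% of all windows. A cluster of any length that crosses a window edge marks both windows, so the first values include windows marked by the same cluster. How many such pairs there were was not counted. When clusters at most 10 kb apart were joined, 207 groups remained in replicate 1 and 296 in replicate 2. Of these groups, 65.2% and 66.6% were a single cluster. The most clusters in a group were 11 in replicate 1 and 15 in replicate 2.

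**Figure D3:**
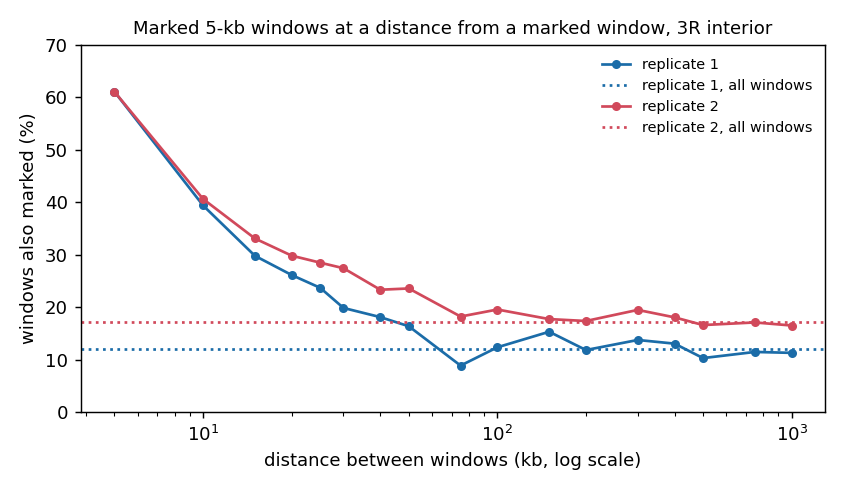
Share of marked 5-kb windows of the 3R interior that have another marked window at a given distal distance (horizontal axis, kb, log scale), for both replicates; dotted lines give the share of marked windows among all windows. The curves start at 61.0% in both replicates, where 1 cluster can mark both windows of a pair. They lie around the dotted lines, 12.02% and 17.3%, from 75 kb on. Replicate 1 stands at 8.89% at 75 kb and at 15.3% at 150 kb.

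Along the arm, coverage changed from bin to bin rather than from one end to the other. The interior was cut into 3 equal parts. Shares in replicates 1 and 2 were 5.61% and 8.02% in the proximal part, 6.59% and 9.78% in the middle part and 6.38% and 8.70% in the distal part. The means of the parts differed by less than the spread between the replicates, which is shared by all parts since replicate 2 was higher in each. Within each replicate the order was the same, with the proximal part lowest and the middle part highest. Clusters of at least 10 kb were divided about evenly, with 11, 12 and 11 in the proximal, middle and distal parts in replicate 1 and 14, 16 and 13 in replicate 2. Between bins of 1 Mb the range was wider. The bin from 11 to 12 Mb was the most covered, with 14.2% in replicate 1 and 18.1% in replicate 2 (mean 16.2 ± 2.72%, SD, n = 2). The bin from 10 to 11 Mb, directly beside it, had the lowest mean, with 1.95% and 3.85% (2.90 ± 1.34%). It was the lowest bin of replicate 1, whereas in replicate 2 the bin from 23 to 24 Mb was lower, at 3.73%. The highest bin stood at 7.29 times the lowest in replicate 1 and at 4.86 times in replicate 2. After the bin from 11 to 12 Mb, the next most covered by the mean were those from 24 to 25 Mb, with 12.4% and 14.4%, and from 13 to 14 Mb, with 9.34% and 15.4%.

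Replicate 2 was higher in 24 of 24 bins of 1 Mb, but by unequal amounts. The ratio of replicate 2 to replicate 1 had a median of 1.503. It was lowest in the bin from 22 to 23 Mb, with 6.81% and 6.89%, where both replicates had the same cluster of about 37 kb. The highest ratio, 2.54, was in the last bin, which is shorter than 1 Mb, with 2.76% and 7.01%. Over the 24 bins the order of the shares was alike, with a Spearman rank correlation of 0.910 between the replicates. The bins belong to the same 2 samples and are not independent replicates.

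At 100 kb the marked bases were gathered in few places. Of 239 full bins, 81 held no covered base in replicate 1 and 48 held none in replicate 2, and 46 were empty in both. Of the covered bases, 50% lay in the 29 most covered bins in replicate 1 (12.1% of bins) and in the 36 most covered bins in replicate 2 (15.1%). The most covered bin, from 6100001 to 6200000, stood at 59.0% and 66.0%. It met 6 clusters in replicate 1 and 5 in replicate 2, of which 3 were at least 10 kb long in each. The bin from 13700001 to 13800000 followed with 51.7% and 63.4%, and met 9 clusters in replicate 1 and 7 in replicate 2. The bin from 24500001 to 24600000 stood at 40.9% and 41.7%, and there a single cluster in each replicate held all covered bases. Among the 6 leading bins by the mean, the replicates stood furthest apart at 17100001 to 17200000, with 24.8% in replicate 1 and 50.2% in replicate 2. They differed more at 13600001 to 13700000, which is not among these bins, with 13.4% in replicate 1 and 40.8% in replicate 2.

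The 10 longest clusters of the combined list, from 17.9 to 41.4 kb, made up 2.48% of its clusters and 15.2% of its bases in the 3R interior. The 11th, of 17.9 kb at 6138688 to 6156601, was 17 bp shorter than the 10th. Each of the 10 was covered at 81.7% or more in replicate 1 and at 97.4% or more in replicate 2. The combined list covers the same samples, so this coverage is no separate evidence of agreement. The clusters differed in whether they were whole in each replicate and in what lay around them. Genes and repeats within them were not analysed here, since no annotation of release 5 was used.

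Among the long domains, the cluster at 24522198 to 24563500 (41.3 kb) stood most apart from other clusters. Replicate 1 had 1 cluster of 40.9 kb there and replicate 2 had 1 of 41.7 kb. The nearest other clusters of the combined list lay 78.3 kb before it and 99.1 kb after it. It also had the highest score of the 3R interior in replicate 1, 2.24 on the authors' own scale, which the files do not define. In replicate 2 it ranked 6th by score, with 2.09. The cluster at 22392313 to 22429514 (37.2 kb) was likewise whole in both, at 37.0 kb in replicate 1 and 37.4 kb in replicate 2. At 5827113 to 5849898 a cluster of 22.8 kb was followed by 96.2 kb without a cluster in the combined list. It was 22.6 kb long in replicate 1 and 22.9 kb in replicate 2, so in these 3 domains the replicates gave nearly the same length.

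The longest cluster of the combined list, 41.4 kb at 13702047 to 13743473, was of another kind. Replicate 2 had 1 cluster of 47.7 kb there, whereas replicate 1 had 5, the longest of 13.997 kb, which together covered 96.0% of it. It lay within a dense stretch. In replicates 1 and 2, clusters held 14.9% and 67.3% of the 50 kb before it, and 23.8% and 39.8% of the 50 kb after it. When clusters at most 20 kb apart were joined, this stretch was the longest group of the interior in the combined list, with 143 kb from 13624243 to 13767227. It was also the longest in replicate 2, with 143 kb from 13624151 to 13766805. The longest such group in replicate 1 was elsewhere, with 97.7 kb from 25849411 to 25947117. At 17613913 to 17639803 (25.9 kb) replicate 1 again had several clusters, 6 of up to 6.26 kb, against 2 in replicate 2, the longer of 20.7 kb.

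A further dense stretch lay in the most covered megabase, with clusters at 11761188 to 11786455 (25.3 kb) and 11894386 to 11921885 (27.5 kb). Around the second the lists placed the break differently. Replicate 2 had 1 cluster of 44.9 kb, whereas replicate 1 and the combined list ended a cluster shortly before it, in the combined list 128 bp before it. In the combined list both long clusters ended at a wide empty stretch. The next cluster of that list was 90.9 kb after the first and 116 kb after the second. Replicate 2 did cover 6.18% of the 50 kb after the first and 0.722% of the 50 kb after the second. Replicate 1 covered no base there. The cluster at 6114998 to 6136972 (21.975 kb) was likewise whole in both, at 21.7 kb in replicate 1 and 22.3 kb in replicate 2. It opened the most covered 100 kb, and the 50 kb after it were covered at 49.0% in replicate 1 and 61.8% in replicate 2. The remaining long clusters were at 14025681 to 14045643 (19.96 kb), where replicate 1 had 19.9 kb and replicate 2 had 19.4 kb, and at 24916786 to 24934716 (17.9 kb), where they had 16.7 and 21.8 kb.

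Long stretches without clusters made up much of the arm. The 10 longest stretches with no cluster in any of the 3 lists ran from 283 to 409 kb and together held 3.22 Mb, or 13.5% of the interior. Stretches of at least 100 kb numbered 62 and held 47.5% of the interior, and 19 of at least 200 kb held 22.5%. By window, 3918 of the 4782 windows (81.9%) held no covered base in the 3 lists, and the longest run of them was 81 windows.

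The longest free stretch was at 19106658 to 19515520 (409 kb). In the replicate lists alone it ran on to 19589128, which makes 482 kb, since it was broken only by clusters of the combined list that neither replicate had. The second was at 21514422 to 21860453 (346 kb), the third at 15525103 to 15861661 (337 kb) and the fourth at 12482103 to 12817071 (335 kb). Only 79.2 kb lay between the fourth and the free stretch at 12896230 to 13200841 (305 kb), and it held 1 cluster in replicate 1 and 3 in replicate 2 (1.29% and 5.95% of it). The stretch at 3024153 to 3320665 (297 kb) was 35.8 kb from the 11th longest, of 280.1 kb, and that part held no cluster in replicate 1 and 3 in replicate 2. Between the stretches at 18010965 to 18293746 (283 kb) and 18566810 to 18879401 (313 kb) lay 273 kb with more coverage than the interior as a whole, at 16.1% in replicate 1 and 17.0% in replicate 2. The other free stretches were at 23796624 to 24109272 (313 kb) and 8506548 to 8789674 (283 kb).

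How long a free stretch was depended on a few short clusters. In replicate 1 the longest was 655 kb, at 15476946 to 16131829, and replicate 2 had 3 clusters inside it, which covered 0.938% of it and were at most 2.33 kb long. The next, 637 kb from the proximal end of the interior to 3637288, held 4 replicate 2 clusters of at most 2.77 kb. Its length is set by the cut at that end, and it may run on beyond it. The longest stretch of replicate 2 was 519.9 kb. Free stretches of such length were not particular to 3R. In replicates 1 and 2 the longest were 756 and 612 kb in the 3L interior and 571 and 426 kb in the 2L interior. In the X interior they were 333 and 262 kb. Stretches of at least 300 kb held 22.04% of the 3R interior in replicate 1 and 10.3% in replicate 2.

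In replicate 2, longer and higher-scoring clusters more often had a partner in the other replicate. Of the 344 replicate 1 clusters, 329 (95.6%) met a replicate 2 cluster by at least 1 base, and 293 of the 501 replicate 2 clusters (58.5%) met one of replicate 1. The 208 replicate 2 clusters without a partner were short: their median was 1588.5 bp, that of clusters with a partner was 3856 bp, and the longest without one was 7.34 kb. Chance meetings are also more likely for a long cluster. In the shortest 25% of replicate 2 clusters, from 1001 to 1593 bp, 20 of 125 (16.0%) met a replicate 1 cluster. In the longest 25%, from 4334 bp up, 124 of 126 (98.4%) did. Ordered by score, 53 of the 125 lowest-scoring clusters (42.4%) and 110 of the 126 highest-scoring (87.3%) did, and length and score went together. In replicate 1 the shares varied less, from 88.4% in the shortest 25% to 98.8% in the longest. All clusters of at least 10 kb, 34 in replicate 1 and 43 in replicate 2, met a cluster of the other replicate. Of the 34, 33 lay at 90% or more within replicate 2 clusters, and of the 43, 24 lay so within replicate 1 clusters.

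Where clusters corresponded one to one, in 234 pairs, their edges lay close together. The median distance between corresponding edges was 345.5 bp, and 60.3% of the 468 edges lay within 500 bp of each other. The replicate 2 cluster was the longer in 193 pairs (82.5%), with a median ratio of lengths of 1.20. In 39 cases 1 replicate 2 cluster met several replicate 1 clusters, up to 5, and the reverse occurred in 13. The ranks of the scores of the pairs had a Spearman correlation of 0.767, and length and score within a list had one of 0.688 in replicate 1 and 0.593 in replicate 2. These correlations are across clusters of the same 2 libraries and are given as descriptions.

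Scores in the 3R interior were low within each list. The median score of all clusters of a list, those of heterochromatin included, was 1.37 in replicate 1 and 1.42 in replicate 2. Of the 3R interior, 31 of the 344 replicate 1 clusters and 72 of the 501 replicate 2 clusters reached it. With those clusters alone the covered share was 2.46 ± 0.997% (SD, n = 2), and the median cluster length was 9822 bp. Within the 3R interior the median score was 0.793 in replicate 1 and 0.857 in replicate 2. These are near the medians of 0.779 and 0.885 in the 2L interior and 0.785 and 0.902 in the 3L interior, while the X interior had 1.07 and 1.18. The sizes of scores were compared only within a list.

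Set beside the interiors of 2L, 3L and X, the 3R interior was the least covered in each replicate. In replicate 1 the shares were 6.19% on 3R, 8.53% on 3L, 8.87% on 2L and 18.0% on X. In replicate 2 they were 8.83%, 11.5%, 13.01% and 24.2% in the same order of arms. Coverage of 3R was 0.531 times that of the other 3 interiors pooled in replicate 1 and 0.551 times in replicate 2. X weighs heavily in this pool, with 3321 kb covered in replicate 1 and 4467 kb in replicate 2. In the same order, 2L had 1685 and 2473 kb, and 3L had 1752 and 2361 kb. The means were 7.51 ± 1.87% on 3R, 10.0 ± 2.10% on 3L, 10.9 ± 2.93% on 2L and 21.1 ± 4.40% on X (SD, n = 2). Against 3L and 2L the difference of the means was of the order of the spread between replicates, and the replicate 2 value of 3R lay above the replicate 1 value of 3L. Replicate 2 was higher on each arm, so that spread is in part shared by the arms. Within replicates 1 and 2, coverage of 3L was 1.38 and 1.30 times that of 3R. The ratios to 3R were 1.43 and 1.47 for 2L, and 2.91 and 2.75 for X. Both X values lay well above both 3R values. The order 3R, 3L, 2L, X was the same in both replicates, and the difference between arms was not tested.

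The lower coverage of 3R went with fewer clusters rather than with shorter ones. There were 14.4 and 20.96 clusters per Mb on 3R in replicates 1 and 2, against 18.5 and 27.6 on 3L, 19.2 and 29.4 on 2L and 39.6 and 48.5 on X. Their median lengths were alike, at 2541 and 2406 bp on 3R, 2534 and 2368 bp on 3L, 2622 and 2603 bp on 2L and 2507 and 2531 bp on X. The mean lengths on 2L, 3L and X were between 0.990 and 1.19 times that on 3R, whereas the densities were between 1.29 and 2.75 times that on 3R. The longest clusters did differ. The longest of the 3R interior, 40.9 and 47.7 kb, compared with 64.6 and 65.3 kb on 2L, 92.1 and 92.5 kb on 3L and 170 and 172 kb on X. Per 10 Mb, clusters of at least 20 kb numbered 2.51 and 4.60 on 3R, 3.89 and 5.35 on 3L, 6.31 and 9.47 on 2L and 8.14 and 15.7 on X.

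No full 1 Mb bin of the 3R interior was covered at 20% or more in either replicate. The 2L interior had 1 such bin in replicate 1 and 4 in replicate 2, the 3L interior 1 in each, and the X interior 6 and 11. Among 3R, 2L and 3L the lowest bins did not follow the order of the arms, at 1.95% on 3R, 1.87% on 2L and 1.87% on 3L in replicate 1. In replicate 2 they were 3.73%, 3.03% and 2.89%, with 3R the highest of these arms. The lowest bin of the X interior stood above them, at 5.25% in replicate 1 and 8.87% in replicate 2. Agreement between the replicates was similar on each arm. Of the bases covered in either, both covered 63.1% on 3R, 61.8% on 2L, 64.6% on 3L and 64.5% on X.

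**Figure D4:**
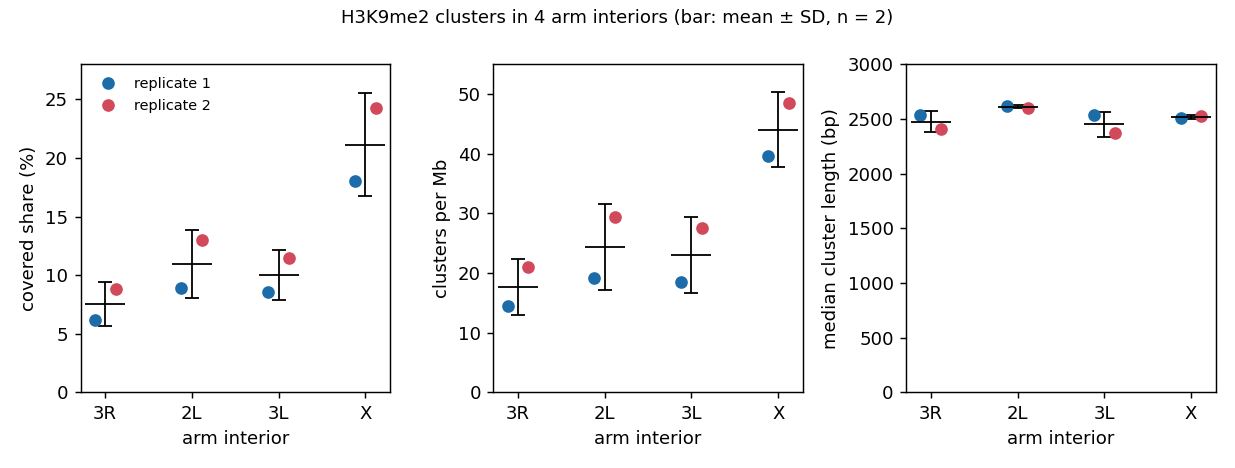
Covered share (left, percent), clusters per Mb (middle) and median cluster length (right, bp) in 4 arm interiors cut in the same way; points are the replicates, and the horizontal line and bar give their mean ± SD (n = 2). The 3R interior is lowest in covered share, 6.19% and 8.83%, and in density, 14.4 and 20.96 clusters per Mb, while its median lengths, 2541 and 2406 bp, lie among those of the other arms.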

How the data were processed

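Enriched clusters of 2 H3K9me2 ChIP samples of S2-DRSC cells were analysed, together with the combined list. Positions are 1-based on FlyBase release 5, per the file headers. Bowtie 0.12.7 was used, per the submitters' processing notes. The sources used here do not name the cluster caller, its threshold, the read filters or the way the combined list was made. Each deposited score is the authors' own value, on a scale not defined in the files. The lists hold no read counts, so depth is unknown.

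A cluster was counted in an interior that held its midpoint, and coverage was counted base by base. The 2L, 3L and X interiors were cut in the same way, leaving out 3 Mb at the centromere end and 1 Mb at the telomere end. Python 3.11.15, NumPy 2.4.6 and SciPy 1.17.1 (ranks) were used, and the code was tested on simulated lists. Named regions are the 10 longest combined-list clusters, the 10 longest stretches free in the 3 lists, and the 1 Mb bins with the highest and lowest mean share. Other regions, such as the leading bins of 100 kb, were picked after their values were seen. The region, members and lists were chosen with earlier results of these data known. Alternatives covered score, joining, minimum length, ends of the interior, window size, lists and overlap. Gene names and sequences were not used, because the gene table at hand is on release 6.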

Additional observations from a re-analysis of the deposited data

How the results depend on the processing

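Of 46 recomputed values of 7 results, 25 were counted as kept, meaning within the SD of the replicates or, for the number of clusters, within 1.5 times. Of these, 8 leave out a replicate and were kept by construction, since 1 of 2 values lies within the SD of their mean. The shared share and the longest free stretch have no such spread, so any change counted. With only clusters at or above the median score of their list, the covered share was 2.46%, the number of clusters 51.5, the median length 9822 bp, the share of marked windows 3.51%, the shared share 50.7%, the longest free stretch 1149 kb and the ratio of 3R to the other interiors 0.360; this choice leaves fewer clusters by construction. Clusters of at least 2 kb numbered 263.5 on average. With clusters within 1 kb joined, the median length was 2625 bp and the shared share 63.4%. Leaving out the centromeric 5 Mb and the telomeric 2 Mb gave a shared share of 64.9% and a ratio of 0.617; the cause was not tested. The combined list gave a median length of 2833 bp and a longest free stretch of 637 kb, which starts at the proximal cut of the interior. Marked windows were 9.13% at 1 kb, 30.1% at 20 kb and 6.59% where 50% of a window had to be covered. Counted per cluster, 73.6% met the other list and 65.9% had at least 50% of their length in it. Without one replicate the longest free stretch lay between 519.9 and 654.9 kb. The ratio, in which X is part of the other interiors, was under 1 in all 6 alternatives. Coverage of genes was not run, for want of an annotation of release 5. No paired analysis was possible because the samples that share replicate numbers with the ChIP samples are inputs, of which no list was used here; arms were set side by side within each replicate. Unknown depth limits every statement on free stretches.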

Other observations

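Some clusters of the 3R interior were found in 1 list only, and they are given as values that were picked after they were seen. The highest score of replicate 2 in the 3R interior, 3.97, belonged to a cluster of 1007 bp at 8292399 to 8293405, where neither replicate 1 nor the combined list had a covered base. The next score of replicate 2 was 2.27, for a cluster of 14934 bp at 25761682 to 25776615 that was covered at 90.6% in replicate 1.

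The combined list had 17 clusters in the 3R interior that met no cluster of either replicate, from 1001 to 1826 bp long. A pair of them, at 19515521 to 19516528 and 19517600 to 19518981, ended the longest free stretch of the arm. A further 77 combined clusters met replicate 2 only and 13 met replicate 1 only, while 296 met both. Of the combined bases, 74.9% lay in both replicates, 16.7% only in replicate 2 and 4.49% only in replicate 1, and 3.99% in no replicate list.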
